A study of Mus musculus with 4 samples.

Results

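Prosaposin and 7 lysosomal proteins that break down sphingolipids or help to do so were followed in 4TO7, a cell line from a mammary tumour of the BALB/cfC3H mouse strain. The members were chosen by name. They are Psap, Galc, Gla, Asah1, Smpd1, Arsa, Gm2a and Hexa, 8 of the 27670 gene names on a 2-colour whole-genome microarray, read by 13 of its 41174 gene probes. One stable line carried the microRNA cluster miR-23b/27b/24 in the retroviral vector pMSCV-puro, and the other carried the pMSCV-puro vector alone. Both lines therefore hold the vector, and each is represented by 2 arrays that the labels call transfection replicates, so p-values measure only the spread between these. On every array the Cy5 channel held total RNA of these cells, and the Cy3 channel held Universal Mouse Reference RNA, pooled from 11 cell lines of the mouse. A log2 ratio below is Cy5 over Cy3 of 1 probe on 1 array, after background correction with an offset of 50 and normalization within the array. So 0 means the same signal as in the reference mix relative to the trend of that array. The offset draws the ratios of dim probes toward 0.

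Sphingolipids are membrane lipids that reach the lysosome by endocytosis and are taken apart there in a fixed order by acid hydrolases, which act on the sugar or sulphate head groups first and on ceramide last. Several of these enzymes need a small helper protein that presents the lipid. Prosaposin is the precursor that proteases cut into the saposins A, B, C and D, and the GM2 activator is a helper of the same kind encoded by Gm2a. Inherited loss of these proteins causes lipid storage diseases such as Krabbe disease (GALC), Fabry disease (GLA), Farber disease (ASAH1), Niemann-Pick disease (SMPD1), metachromatic leukodystrophy (ARSA) and Tay-Sachs disease (HEXA) in humans. The precursor of the saposins is also secreted by many cells, including tumour cells.

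The mature microRNAs of the cluster whose sequence was in the RefSeq table used here (GRCm38.p6) are shown because they are what distinguishes the lines, with the seed, bases 2 to 8, in capitals. They lie on the plus strand of chromosome 13, at chr13:63300760-63300780 for mmu-miR-27b-3p and chr13:63301251-63301272 for mmu-miR-24-3p, and their seeds differ.
mmu-miR-27b-3p: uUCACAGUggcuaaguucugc
mmu-miR-24-3p: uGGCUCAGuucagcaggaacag
The third microRNA, mmu-miR-23b-3p, is named only.

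Member probes are 60 bases long, and where a gene has several they are numbered from the brightest by the mean log intensity of both channels. Stretches are printed for the genes on which the results turn, Psap with both probes, Gla because its probes gave different values, and Hexa because it had the largest difference, together with the only member probe that holds a seed match, that of Asah1. For Psap 1, Psap 2 and Gla 2 the first 30 bases are given, for Gla 1 and Hexa all 60, and for Asah1 the last 30, with the match to the miR-27b-3p seed (ACTGTGA) in capitals.
Psap 1: gttattttggatgattagaagcacagaatg
Psap 2: aagtcacctacttgtgggtctagggtaatg
Gla 1: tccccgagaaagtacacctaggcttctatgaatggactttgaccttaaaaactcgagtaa
Gla 2: cacttcaattcaatctaaaacaagggatgt
Hexa: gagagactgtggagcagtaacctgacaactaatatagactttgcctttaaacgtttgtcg
Asah1: actttgccactacggaaagggtaACTGTGA
The files place them on the mm7 build, Psap 1 at chr10:59820272-59820331 and Psap 2 at chr10:59819939-59819998 on the plus strand, Gla 1 at chrX:129309118-129309177 and Gla 2 at chrX:129307894-129307952 on the minus strand, Hexa at chr9:59590832-59590891 on the plus strand and Asah1 at chr8:40126754-40126813 on the minus strand. No mm7 gene annotation was used here, so exons and untranslated regions are not assigned. ACTGTGA, searched on the strand of the probe, occurs in 340 of the 41174 gene probes (0.826%), and CTGAGCC, the match to the miR-24-3p seed, in 173 (0.42%) and in 0 of the 13 member probes. A match within a probe covers only those 60 bases of a transcript.

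None of the 13 member probes passed the test between the lines. The test was limma's moderated comparison of log2 ratios, with Benjamini-Hochberg adjustment over 30075 probes and a threshold of 0.05. Over the whole array 2972 probes passed, 9.88% of those tested (5.43% higher and 4.45% lower in miR-23b/27b/24 cells). At an unadjusted p under 0.05 there were 5 member probes, 3 higher and 2 lower, against 28.6% of all probes. Every array detected all 13 probes well above background, in Cy5 as in Cy3, and no member spot was saturated in Cy5. Saturation in Cy3 was not checked. The arrays of the lines did not overlap for 6 of the 12 member probes measured on all 4 arrays, 3 of them higher (Hexa, Smpd1 and Gla 1) and 3 lower (the 3 Galc probes) in miR-23b/27b/24 cells, and over all such probes this share was 60.0%. The median log2 fold change was -0.087 over the member probes and -0.0054 over all probes tested.

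**Figure D1:**
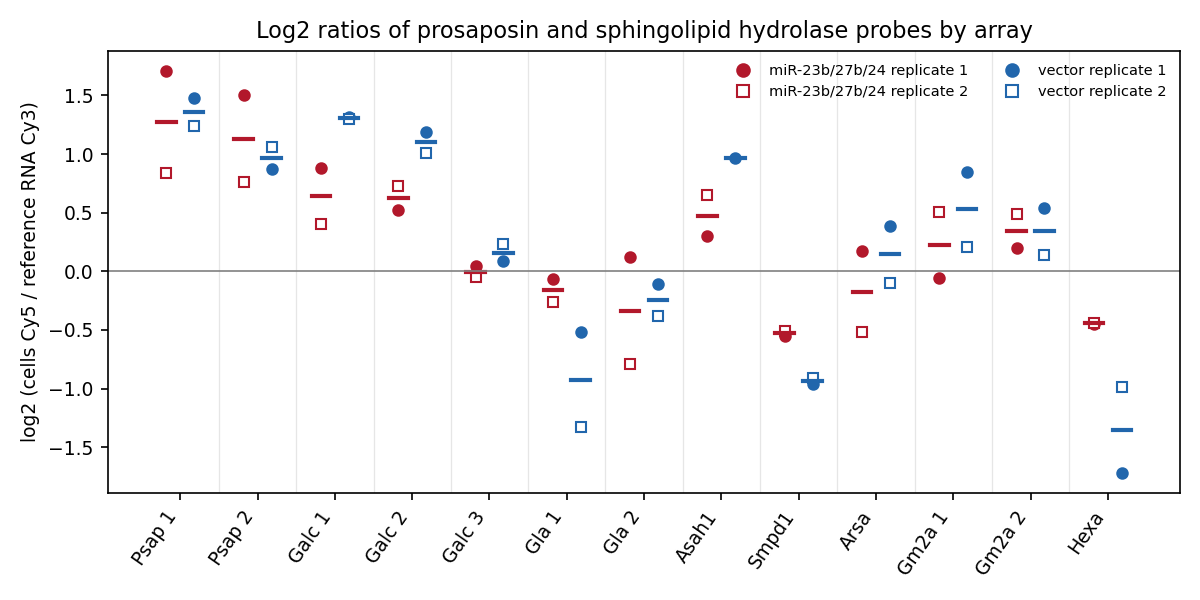
Log2 ratio of cells (Cy5) over reference RNA (Cy3) for the 13 member probes on each array, with miR-23b/27b/24 cells (red) left of vector cells (blue). Filled circles are replicate 1, open squares replicate 2, and short lines the mean of a line. Hexa, Smpd1 and Gla 1 are higher and the Galc probes lower on both miR-23b/27b/24 arrays, while the Psap, Arsa and Gm2a arrays overlap.

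Psap transcripts were not detectably different between the lines at this precision. Psap 1 gave log2 ratios of 1.71 and 0.84 in miR-23b/27b/24 cells, against 1.48 and 1.24 in vector cells. The vector arrays lie between the miR-23b/27b/24 arrays, so the groups overlap fully. Its log2 fold change was -0.086 ± 0.31 (SE, n = 2 each, 95% interval -0.87 to 0.70, limma adjusted p = 0.89). Psap 2 gave 1.5 and 0.76 in miR-23b/27b/24 cells and 0.87 and 1.06 in vector cells, a log2 fold change of 0.17 ± 0.27 (95% interval -0.52 to 0.85, limma adjusted p = 0.741). The log2 ratio was above 0 for both probes on all 4 arrays, that is, Psap gave more signal in these cells than in the reference mix.

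The largest spread of Psap was inside the miR-23b/27b/24 line. In its processed Cy5 signal, Psap 1 read 21233 on replicate 1 and 10247 on replicate 2 of that line, against 17619 and 16209 on the vector arrays. Psap 2 read 8754 and 4323 in miR-23b/27b/24 cells, against 5343 and 5891 in vector cells. Both probes thus placed miR-23b/27b/24 replicate 1 highest of the 4 arrays and replicate 2 lowest. The Cy3 signal of the reference on the same spots varied by 1.19-fold for Psap 1 and 1.20-fold for Psap 2 from the lowest to the highest array. The 2 arrays of the line were 0.87 apart in log2 ratio for Psap 1 and 0.74 for Psap 2, where the median gap over all probes was 0.13 for this line and 0.19 for the vector line. The sign depended on single arrays. Without miR-23b/27b/24 replicate 2 the log2 fold change of Psap 1 was 0.35, and without vector replicate 1 it was 0.038, while Psap 2 gave -0.20 without miR-23b/27b/24 replicate 1.

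The genes most like Psap were taken as those with the smallest root mean square difference in log2 ratio from Psap 1 over the 4 arrays, among 14992 other named genes. They were Dusp18 (0.147), Slfn8 (0.153), Pfdn1 (0.156), Dicer1 (0.177) and Mapk1ip1l (0.184). Dicer1, which encodes the nuclease that cuts microRNA precursors, gave log2 ratios of 1.69 and 0.76 in miR-23b/27b/24 cells, against 1.31 and 1.53 in vector cells. Dusp18 gave 1.52 and 1.03 in miR-23b/27b/24 cells and 1.54 and 1.13 in vector cells. In each of these 5 genes the ratio of miR-23b/27b/24 replicate 1 exceeded that of replicate 2, the pattern for which they were selected.

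Among the enzymes that trim sugars from glycolipids, Hexa had the largest difference. Hexa encodes the alpha subunit of beta-hexosaminidase A, which removes N-acetylgalactosamine from GM2 ganglioside. Its log2 ratios were -0.45 and -0.44 in miR-23b/27b/24 cells, against -1.72 and -0.99 in vector cells. Both miR-23b/27b/24 arrays lie above both vector arrays, and the vector arrays are 0.73 apart. This is a log2 fold change of 0.91 ± 0.26 (SE, n = 2 each, 95% interval 0.25 to 1.57), or 1.88-fold, with an unadjusted p of 0.0165 and a limma adjusted p of 0.0918. The processed Cy5 signal was 8195 and 8020 in miR-23b/27b/24 cells, against 3287 and 6012 in vector cells, while Cy3 stayed between 10765 and 11845. The log2 fold change of Hexa was 0.55 without vector replicate 1 and 1.27 without vector replicate 2. It was 0.91 without miR-23b/27b/24 replicate 1 and also without replicate 2. A fit with 1 vector array takes its residual spread from the miR-23b/27b/24 arrays alone, which were 0.008 apart for Hexa.

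Gm2a, the activator that lifts GM2 out of the membrane for beta-hexosaminidase A, overlapped between the lines. Gm2a 1 gave -0.056 and 0.51 in miR-23b/27b/24 cells and 0.85 and 0.21 in vector cells, a log2 fold change of -0.30 ± 0.29 (limma adjusted p = 0.571). Gm2a 2 gave 0.20 and 0.49 in miR-23b/27b/24 cells and 0.54 and 0.14 in vector cells, a log2 fold change of -0.0015 ± 0.20 (95% interval -0.51 to 0.50, limma adjusted p = 0.997). For both Gm2a probes replicate 2 was the higher array of the miR-23b/27b/24 line and the lower array of the vector line.

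Gla encodes alpha-galactosidase A, which removes the terminal galactose of globotriaosylceramide, and its probes gave different values. Gla 1 gave log2 ratios of -0.062 and -0.26 in miR-23b/27b/24 cells, against -0.52 and -1.33 in vector cells. The arrays do not overlap and the vector arrays are 0.80 apart. The log2 fold change was 0.76 ± 0.29 (SE, n = 2 each, 95% interval 0.031 to 1.49), a 1.70-fold difference, with an unadjusted p of 0.0439 and a limma adjusted p of 0.162. Gla 2 gave 0.12 and -0.79 in miR-23b/27b/24 cells and -0.11 and -0.38 in vector cells, with the vector arrays inside the range of the other line. Its log2 fold change was -0.087 ± 0.32 (95% interval -0.92 to 0.74, limma adjusted p = 0.895), and its Cy5 signal was dimmer, at 374 and 125 in miR-23b/27b/24 cells, against 263 and 228 in vector cells. The log2 fold change of Gla 1 was 1.16 without vector replicate 1 and 0.36 without vector replicate 2.

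Galc encodes galactosylceramidase, which removes galactose from galactosylceramide, a main lipid of myelin, and all 3 of its probes read lower in miR-23b/27b/24 cells without passing the test. Galc 1, at chr12:95697809-95697868 (mm7, minus strand), gave log2 ratios of 0.88 and 0.40 in miR-23b/27b/24 cells, against 1.32 and 1.30 in vector cells. Galc 2, at chr12:95698784-95698843, gave 0.52 and 0.73 in miR-23b/27b/24 cells and 1.19 and 1.01 in vector cells. In both, the lines do not overlap. For Galc 1 the log2 fold change was -0.67 ± 0.19 (SE, n = 2 each, 95% interval -1.16 to -0.18, unadjusted p = 0.0172, limma adjusted p = 0.0943), a 1.59-fold difference. For Galc 2 it was -0.47 ± 0.15 (95% interval -0.85 to -0.093, limma adjusted p = 0.113).

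The third Galc probe, designed on a cDNA clone and placed at chr12:95735596-95735655, gave 0.047 and -0.051 in miR-23b/27b/24 cells, against 0.087 and 0.23 in vector cells, a log2 fold change of -0.16 ± 0.13 (limma adjusted p = 0.484). It was the dimmest member probe, at 58.8 to 84.6 in Cy5. Probes of 1 gene share its transcripts and are not replicates of the comparison. With every local background used as measured, Galc 1 was at -0.19 and Galc 2 reversed to 0.13.

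Smpd1 encodes acid sphingomyelinase, which cuts sphingomyelin to ceramide, and its replicates lay close together in both lines. Its log2 ratios were -0.55 and -0.51 in miR-23b/27b/24 cells, against -0.96 and -0.91 in vector cells. The lines do not overlap, and the arrays of a line were 0.047 apart in miR-23b/27b/24 cells and 0.042 apart in vector cells. That gives a log2 fold change of 0.41 ± 0.12 (SE, n = 2 each, 95% interval 0.096 to 0.72), a 1.33-fold difference, with an unadjusted p of 0.0199 and a limma adjusted p of 0.102. In the whole array the smallest log2 fold change of a probe that passed was 0.58 in size, above the value of Smpd1. The probe lies at chr7:101614659-101614718 (mm7, plus strand), and its Cy5 signal was 8180 and 8030 in miR-23b/27b/24 cells and 5798 and 6795 in vector cells.

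Asah1, acid ceramidase, carries out the last step, the split of ceramide into sphingosine and a fatty acid. It was measured on 3 arrays, with log2 ratios of 0.30 and 0.65 in miR-23b/27b/24 cells, against 0.97 in vector replicate 1. The spot of vector replicate 2 was marked as an outlier, at 426244 in Cy5 and 312445 in Cy3, and was left out. The Cy5 signal of the other spots was 6798 and 7819 in miR-23b/27b/24 cells and 10573 in vector cells. The log2 fold change was -0.50 ± 0.22 (SE, 95% interval -1.11 to 0.11, limma adjusted p = 0.243), and with the marked spot kept it was -0.33 (limma adjusted p = 0.328). This is the probe that holds the miR-27b-3p seed match printed above.

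Arsa, arylsulfatase A, removes the sulphate of sulfatide with the help of saposin B. At chr15:89555513-89555572 (mm7, minus strand) it gave log2 ratios of 0.17 and -0.52 in miR-23b/27b/24 cells, against 0.39 and -0.10 in vector cells. The lines overlap, and in both of them replicate 1 was the higher array. Arsa thus had a log2 fold change of -0.32 ± 0.29 (SE, n = 2 each, 95% interval -1.07 to 0.43, limma adjusted p = 0.536). Its Cy5 signal was 25762 and 15241 in miR-23b/27b/24 cells and 31619 and 23799 in vector cells.

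**Figure D2:**
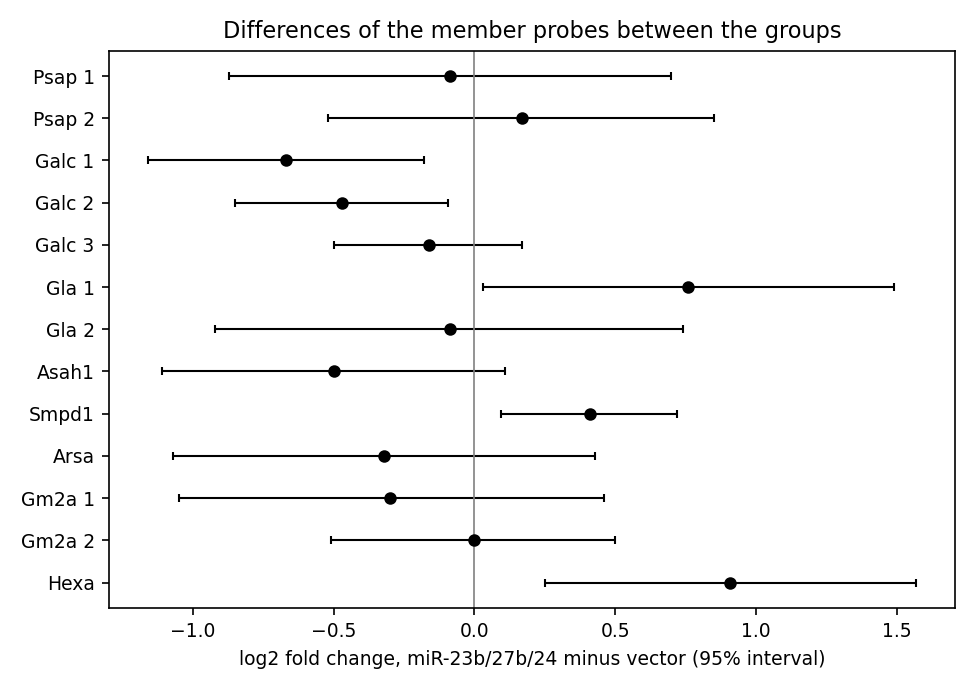
Log2 fold change (miR-23b/27b/24 minus vector) of each member probe with its 95% interval from the limma fit, n = 2 arrays each except Asah1, which has 1 vector array. The intervals of 8 probes hold both signs, and those of Hexa, Gla 1, Smpd1, Galc 1 and Galc 2 do not before adjustment for the number of probes tested.

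The members' values differed in sign. Of the 13 log2 fold changes 4 were positive and 9 negative, where the median over all probes tested was -0.0054. The negative ones include 3 probes of Galc alone, and Psap 1 (-0.086), Gla 2 (-0.087) and Gm2a 2 (-0.0015), which lie near 0. The genes with 2 or 3 probes split by sign for Psap and Gla but not for Galc and Gm2a. However, Gm2a 2 changed sign in 4 of 16 alternatives. Intervals reached from 0.31 to 0.83 on the log2 scale to either side of the estimate, and 8 of them held both signs. Under other settings, leaving out 1 array moved 8 of the 13 probes further than any other processing did. Galc 2 was moved furthest by the processing, by 0.60, and Gla 2 by leaving out an array, by 0.46.

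**Figure D3:**
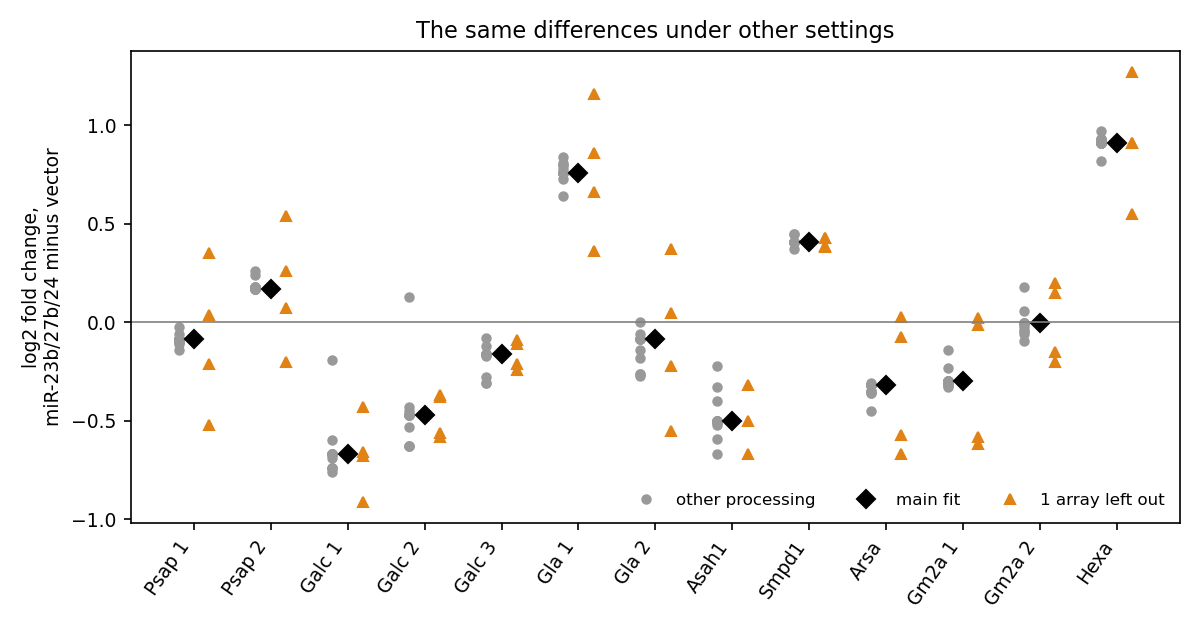
Log2 fold change (miR-23b/27b/24 minus vector) of each member probe in the main fit (black diamond), under other processing (grey circles) and with 1 array left out (orange triangles). Smpd1 stayed between 0.37 and 0.45, Hexa between 0.55 and 1.27 and Gla 1 between 0.36 and 1.16, while Psap 1 ran from -0.52 to 0.35 and Psap 2 from -0.20 to 0.54.

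Many lysosomal genes carry the E-box CACGTG, within the longer palindrome that factors of the TFEB family bind, in their promoters. In the 250 bases before and 50 after the start of RefSeq transcripts (GRCm38.p6), searched on both strands, CACGTG was present in 2 of the 8 promoters of 7 member genes (25.0%), those of Gla and Arsa, against 7.15% of 32851 promoters. The longer TCACGTGA, which contains the first motif, was present in 1 of the 8 (12.5%), that of Gla, against 0.974% of all promoters. The Gla stretch from 250 to 181 bases before the start holds 2 copies, in capitals, and is printed from chrX:134601186-134601255, minus strand. A match is a description of the letters in this window.
Gla promoter stretch: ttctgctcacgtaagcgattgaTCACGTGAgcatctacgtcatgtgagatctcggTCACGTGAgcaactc

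The other genes that serve these enzymes were read from 6 lists, each gene by its brightest probe. These lists were chosen with earlier results of these data known. Of 93 listed genes 88 were measured and 13 passed the test (14.8%), 3 higher and 10 lower in miR-23b/27b/24 cells, against 10.1% of 20513 genes (5.12% higher and 4.96% lower). Among the 9 other lysosomal sphingolipid hydrolases and helpers 0 passed, as among the members, with a median log2 fold change of -0.15 against -0.03 over all genes. Ctsa, the protective protein that holds beta-galactosidase and neuraminidase together in the lysosome, is named from this list. It gave log2 ratios of -0.67 and -0.82 in miR-23b/27b/24 cells, against -1.19 and -1.49 in vector cells, a log2 fold change of 0.59 ± 0.16 (limma adjusted p = 0.0809). The list of 16 lysosomal hydrolases of other substrates also gave 0 calls, with a median of 0.011. It leaves out the protease Ctsd, which is in the next list and passed. The lysosomal protease Lgmn is in none of the 6 lists and also passed, at -1.32 (limma adjusted p = 0.0084). The 0 therefore holds only for the hydrolases listed. The list of hydrolases of other substrates was led by Tpp1, a tripeptidyl peptidase, at 0.66 ± 0.14 (limma adjusted p = 0.052) and Arsb, arylsulfatase B, at 0.69 ± 0.20 (limma adjusted p = 0.0937). The other probe of Tpp1 was at 0.22 (limma adjusted p = 0.423) and that of Arsb at 0.40 (limma adjusted p = 0.291).

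Of 11 genes for prosaposin sorting, processing and receptors, 1 rose and 1 fell (18.2% passed, against 10.1% of all genes). Nagpa, the uncovering enzyme that completes the mannose 6-phosphate tag of lysosomal enzymes, gave log2 ratios of 1.95 and 1.81 in miR-23b/27b/24 cells, against 0.54 and 0.57 in vector cells. It was 2.51-fold higher (log2 fold change 1.33 ± 0.13, limma adjusted p = 0.0091). Ctsd, cathepsin D, a protease that cuts prosaposin, gave -2.0 and -2.03 in miR-23b/27b/24 cells, against -1.02 and -1.04 in vector cells. It was 1.98-fold lower (log2 fold change -0.99 ± 0.12, limma adjusted p = 0.0155), and its other probe was at -0.51 (limma adjusted p = 0.0926). Sort1, the sorting receptor sortilin, was at -0.046 ± 0.12 (limma adjusted p = 0.847), and Grn, which encodes the prosaposin partner progranulin, at 0.63 ± 0.38 (limma adjusted p = 0.346). The other probes of Sort1 were at 0.064 and 0.05, and that of Grn at 0.12 (limma adjusted p = 0.68). The median of this list was -0.069. The 16 lysosomal membrane and biogenesis genes had a median of -0.17 and 1 call (6.25%, against 10.1% of all genes). The list leaves out Cd68, a lysosomal membrane protein read below as a macrophage marker, which was lower at -1.68 (limma adjusted p = 0.00656). Within the list, by its brightest probe only Npc2, the soluble cholesterol carrier of the lysosome, passed. It gave 0.42 and 0.32 in miR-23b/27b/24 cells, against 1.40 and 1.29 in vector cells, and was 1.97-fold lower (limma adjusted p = 0.0183). Lamp2, a membrane protein of the lysosome, was at 0.37 by its brightest probe (limma adjusted p = 0.216), but its other probes disagreed, with 1 lower at -0.83 (limma adjusted p = 0.0249) and 1 at 0.51 (limma adjusted p = 0.0786).

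The lists of sphingolipid synthesis and of non-lysosomal breakdown held 5 calls each. In synthesis 5 of 20 measured genes passed (25%, against 10.1% of all genes), 1 higher and 4 lower, with a median of -0.073. St3gal5, the sialyltransferase that makes GM3 from lactosylceramide, gave log2 ratios of 0.99 and 1.45 in miR-23b/27b/24 cells, against -0.86 and -0.97 in vector cells. It was 4.40-fold higher (log2 fold change 2.14 ± 0.19, limma adjusted p = 0.00782). The lower genes were B4galt6, a lactosylceramide synthase (-1.12, limma adjusted p = 0.0306), B4galnt1, which makes GM2 from GM3 (-0.79, limma adjusted p = 0.0314), Sptlc2, a subunit of the serine palmitoyltransferase that starts the pathway (-0.89, limma adjusted p = 0.0317), and Kdsr, the enzyme of its next step (-0.86, limma adjusted p = 0.0346). Their arrays did not overlap between the lines, as for 60.0% of all probes measured on 4 arrays. The other probes of B4galnt1 (-0.71), Sptlc2 (-0.47 and -0.51) and Kdsr (-0.89 and -0.13) had the same sign and did not pass.

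In non-lysosomal sphingolipid breakdown and sphingosine 1-phosphate signalling 5 of 16 measured genes passed (31.2%, against 10.1% of all genes). Of these 1 was higher and 4 lower, and the list had a median of 0.03. Sphk1, the kinase that makes sphingosine 1-phosphate, gave -0.84 and -1.23 in miR-23b/27b/24 cells, against 1.41 and 2.30 in vector cells. It was 7.42-fold lower (log2 fold change -2.89 ± 0.33, limma adjusted p = 0.0132), and its other probe also passed, at -2.04 (limma adjusted p = 0.0148). Asah2, neutral ceramidase, was lower at -0.94 (limma adjusted p = 0.0359) with a second probe at -0.85 (limma adjusted p = 0.0309), and Sgpp1, a sphingosine 1-phosphate phosphatase, at -0.73 (limma adjusted p = 0.0409). Sgpl1, the lyase that destroys sphingosine 1-phosphate, was lower at -0.83 (limma adjusted p = 0.0244), but its other probe was at 0.017. S1pr2, a receptor for this lipid, was higher at 1.12 (limma adjusted p = 0.0338), and its other probes were at 0.58 and 0.36 without passing. The count of 13 rested on the arrays: it was 1 without miR-23b/27b/24 replicate 1, 0 without replicate 2 of that line and 21 without vector replicate 1, and it was 6, with 2 higher and 4 lower, both with median centring in place of loess and with local backgrounds kept as measured.

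**Figure D4:**
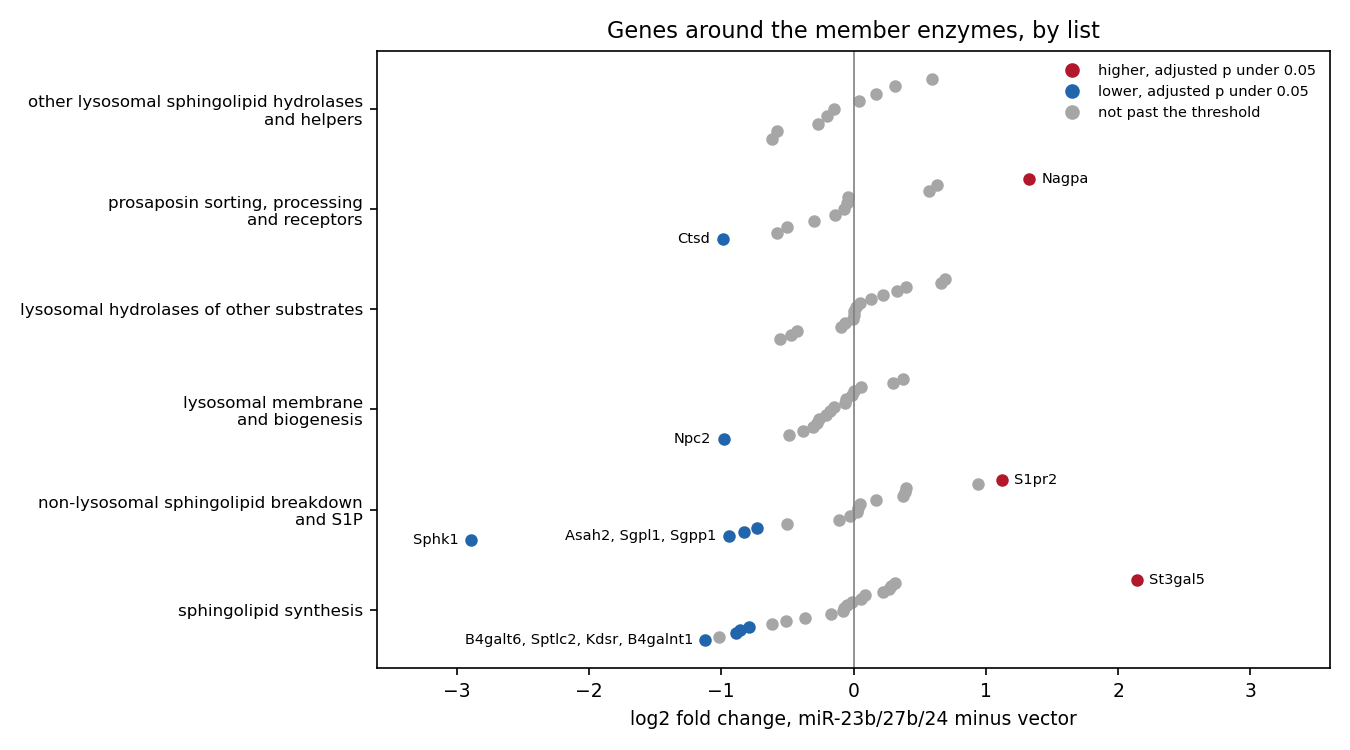
Log2 fold change (miR-23b/27b/24 minus vector) of each measured gene in the 6 lists, by its brightest probe, with genes past a limma adjusted p of 0.05 in red (higher) or blue (lower) and named. The calls lie mainly in the sphingolipid synthesis and non-lysosomal breakdown lists, 5 each. Both lists named for hydrolases have 0 as drawn. The protease Ctsd, which passed, is counted with prosaposin sorting and processing, and the protease Lgmn, which also passed, is in no list.

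**Figure D5:**
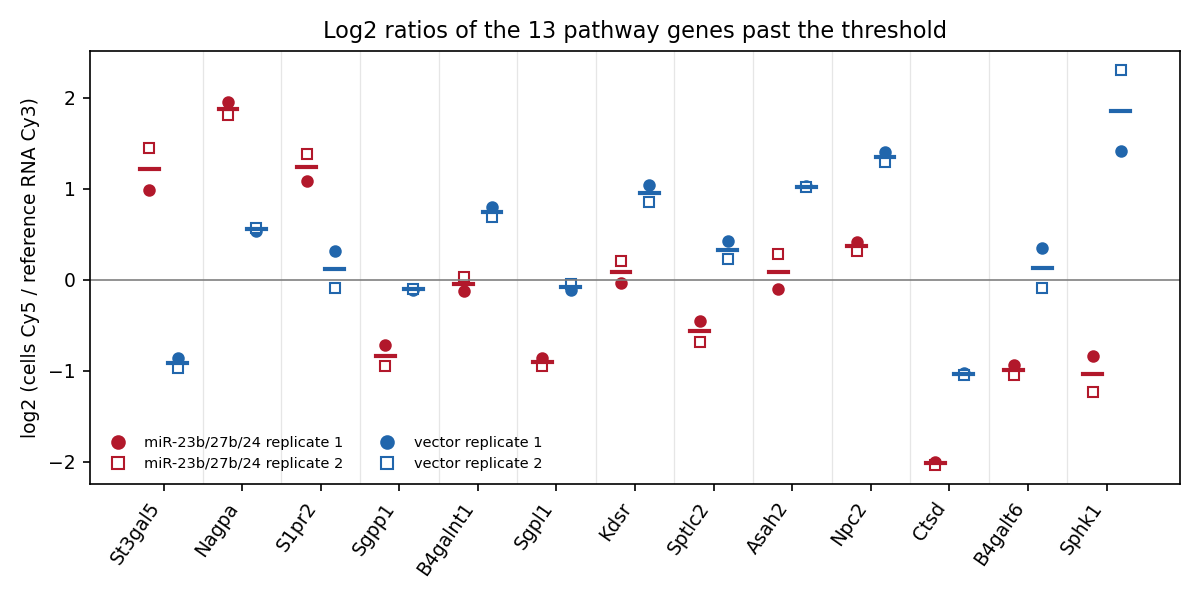
Log2 ratio of cells (Cy5) over reference RNA (Cy3) on each array for the 13 list genes that passed, with miR-23b/27b/24 cells (red) left of vector cells (blue), ordered by log2 fold change. Filled circles are replicate 1, open squares replicate 2, and short lines the mean of a line. St3gal5, Nagpa and S1pr2 are above and the other 10 below the vector arrays, without overlap. These genes were selected by the test on the same arrays, and 60.0% of all probes measured on 4 arrays did not overlap.

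Some single markers of cell types differed between the lines. Of 5 luminal epithelial markers, each detected well above background on every array, Cdh1 (-2.95), Epcam (-3.61) and Krt19 (-4.03) were lower in log2 fold change, while Krt18 (-1.40, limma adjusted p = 0.058) and Krt8 (0.30, limma adjusted p = 0.594) did not pass. The Cy5 sum over all 5 was 202160 and 226809 in miR-23b/27b/24 cells, against 425600 and 349400 in vector cells, and most of it was Krt18 and Krt8. Of 4 basal markers Acta2 was higher (0.95) and Krt14 lower (-1.24). Trp63 (0.38, limma adjusted p = 0.13, arrays not overlapping) and Krt5 (-0.0083) did not pass. The basal sum of 27597 and 27455 in miR-23b/27b/24 cells, against 15941 and 16175 in vector cells, was nearly all Acta2. Of 7 macrophage and leukocyte markers 1 passed, Cd68, itself a lysosomal membrane protein, at -1.68. That list summed to 4129 and 3610 in miR-23b/27b/24 cells, against 6390 and 6625 in vector cells, a gap that was mostly Cd68 (1170 and 993, against 3820 and 3260), and Adgre1, Csf1r, Lyz2, Ptprc and Tyrobp lay between -0.14 and 0.017. Itgam was below background on all 4 arrays, and the log2 ratio of Ptprc was between -5.82 and -5.72. The 5 fibroblast markers had 0 calls and summed to 11966 and 10095 in miR-23b/27b/24 cells, against 7973 and 8953 in vector cells, with Pdgfra at 1.23 (limma adjusted p = 0.0911) and its arrays not overlapping. The 4 endothelial markers, 2 of them above background on all arrays, had 0 calls and summed to 295 and 323 in miR-23b/27b/24 cells, against 310 and 346 in vector cells. The part of these differences in the values above was not tested, and fewer cells of a type and less RNA per cell cannot be told apart in such samples.

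Between 69.9% and 74.8% of probes were well above background in Cy5 on an array. Across probes, which are not independent replicates, log2 ratios correlated at 0.949 between the miR-23b/27b/24 arrays, at 0.886 between the vector arrays and at 0.63 to 0.728 between lines. Precision is limited throughout by having 2 arrays per line.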

How the data were processed

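Values came from 4 arrays, 2 of each line, read on 1 slide in 1 scan with no dye swap. Mean signals, local backgrounds and processed signals are given as intensity, beside the log10 of the processed Cy5 to Cy3 ratio, all from Agilent Feature Extraction 9.5.3.1 per the file headers. A value table deposited by the authors is on a log2 scale; 87.6% to 88.1% of its values lay within 0.001 of those Cy5 over Cy3 ratios in log2 once every probe was centred on its median. Its column medians were 0.0221 and -0.0149 in miR-23b/27b/24 cells and 0.0133 and -0.0172 in vector cells. No source used here names its program.

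Mean signals were corrected by normexp (offset 50) in R 4.3.3 with limma 3.58.1, after local backgrounds marked as outliers (1782 to 1976 spots per array in Cy5) were replaced by the array's median. This replacement was chosen in earlier work on these data after its results were seen. Loess within each array followed, with weight 0 for control spots. Control spots and spots marked as outliers were dropped and repeated spots of a probe averaged. A probe was kept if both arrays of either line had it well above background in Cy5 (30077, of which 30075 could be tested). The comparison used lmFit and eBayes, with 2 residual degrees of freedom and 3.06 prior ones. The fit was checked only on data simulated from its own variance model without array effects, which cannot show how it performs on these arrays. Names came from the files, updated through accession (22951 probes), symbol (6659) or synonym (3109) in a RefSeq table, and 8455 probes kept the name in the files.

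Named genes were all members and the 5 genes most like Psap. From the lists, every called gene up to 6 per direction was named, or otherwise the 2 with the smallest p. Sort1 and Grn were added for their role, and Lamp2, Lgmn and single markers for their values, after these were seen. A gene that the rule names is not reported here. The members and lists were chosen with earlier results of these data known. Alternatives changed background, dye normalization, channel, filter, probe rule and moderation, used the authors' table, added a replicate block or left out 1 array. Same-numbered arrays share only a number.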

Additional observations from a re-analysis of the deposited data

How the results depend on the processing

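The count of member probes past the threshold was 0 in the main fit and in 15 of 17 alternatives; leaving out 1 array gave 0 to 2, with 2 (Hexa and Gla 1, both higher) without vector replicate 1 and 1 (Hexa) without vector replicate 2. The count of list genes was 13, 6 with every local background as measured, 6 with median centring in place of loess (2 higher and 4 lower in both), and 0 to 21 with 1 array left out. Over the whole array 2972 probes passed, 884 with every local background as measured, 1935 with 1 probe per gene, where fewer were tested, and 251 to 6863 with 1 array left out. The lone array of a line is then assumed to vary like the other line. Counts with 1 array left out, and the calls of Hexa and Gla 1 among them, thus rest on the spread of 1 line. With the replicate number as a block, 3283 probes, 13 list genes and 0 member probes passed; deviations of same-numbered arrays correlated at 0.0655, so the numbers were not taken as pairs. With every local background as measured, Galc 2 reversed to 0.13 and Gm2a 2 to 0.18, and Gm2a 2 was 0.058 with median centring. Without miR-23b/27b/24 replicate 1, Gm2a 2 was 0.15 and Psap 2 -0.20; without replicate 2 of that line, Arsa was 0.025, Gla 2 0.37 and Psap 1 0.35. Without vector replicate 1, Gla 2 was 0.049, Gm2a 1 0.022, Gm2a 2 0.20 and Psap 1 0.038. With 1 array left out, the range was -0.52 to 0.35 for Psap 1, -0.20 to 0.54 for Psap 2, -0.67 to 0.025 for Arsa, -0.55 to 0.37 for Gla 2, -0.62 to 0.022 for Gm2a 1 and -0.20 to 0.20 for Gm2a 2. The cause of these reversals was not tested. Galc 3 and Galc 1, Smpd1, Hexa, Gla 1 and Asah1 kept their sign in every alternative run. Keeping spots marked as outliers was added after the data were seen.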
